A study of Mus musculus with 9 samples.

Results

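The genes described here encode the proteins of oxidative phosphorylation: the nuclear subunits of respiratory complexes I to IV, cytochrome c, and the ATP synthase, also called complex V. They were taken by symbol from a table of mRNA levels in NIH 3T3 cells, a mouse embryonic fibroblast line, and 78 of the 10340 genes of the table matched. The symbols begin with Nduf and a subunit letter, Uqcr, Cox followed by a digit from 4 to 8, or Atp5, or are Sdha to Sdhd, Cyc1 or Cycs. By complex, 35 belonged to complex I, 4 to complex II, 9 to complex III, 1 was cytochrome c, 12 were placed with complex IV and 15 with complex V. Ndufa4, named for complex I, was counted with complex IV, to which it is now assigned, and Cox7a2l, a factor that joins complexes III and IV, was counted there too. Atp5s and Atp5sl carry the ATP synthase name without being subunits of it, and were kept apart.

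All cells carried a lentivirus that expresses a short hairpin RNA and had been selected for it. The shControl cells carried a hairpin against RFP, a gene these cells do not have. The shCNKSR2_1 and shCNKSR2_2 cells carried 1 each of 2 hairpins against Cnksr2, which encodes a scaffold protein of Ras signalling, and each group had 3 independent cultures on plastic. Whether the selected cells were pools or clones is not given in the sources used here, and an immortal line on plastic is a limited model of fibroblasts in tissue. Cnksr2 itself was not analysed here, so the knockdown was not checked.

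Complex I takes electrons from NADH and complex II from succinate, and both pass them to coenzyme Q. Complex III hands them on to cytochrome c, and complex IV passes them to oxygen. Complexes I, III and IV pump protons across the inner mitochondrial membrane, and complex V lets them flow back to make ATP. Complexes I, III, IV and V combine nuclear subunits with a few encoded by mitochondrial DNA, while complex II is wholly nuclear. The subunits encoded by mitochondrial DNA were not analysed here.

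Values were FPKM, fragments scaled to transcript length and to the mapped total. They were used to compare genes as well as libraries, and counts of called genes moved when libraries were rescaled. Each gene of the table exceeded 1 FPKM in all 9 libraries, so the table leaves out any gene lower in even 1 of them, and sequencing depth is unknown. Of 10 fibroblast markers, 9 were listed, and they summed to 6730 to 7000 FPKM in shControl, 7540 to 7720 in shCNKSR2_1 and 6980 to 7540 in shCNKSR2_2. No row was found for any of 5 epithelial, 4 endothelial or 4 muscle markers, and Cd68 was the 1 blood marker of 5 with a row. The 2 listed neural markers of 4, Tubb3 and Map2, summed to 4.71 to 4.82 FPKM in shControl, 4.28 to 6.04 in shCNKSR2_1 and 8.50 to 9.15 in shCNKSR2_2. The 2 listed adipocyte markers of 4, Fabp4 and Lpl, summed to 14.9 to 16.4, 8.90 to 12.4 and 6.75 to 7.34 FPKM. The neural sum was higher with shCNKSR2_2, the adipocyte sum lower with both hairpins and the fibroblast sum higher with shCNKSR2_1, without overlap with the controls, and their part in the results below was not tested. Along the first principal component, with 67.5% of the variance, shCNKSR2_1 replicate 1 lay at -1.71, nearer to the controls than replicates 2 and 3 of its group at 5.98 and 4.63. In shControl replicate 3, shCNKSR2_1 replicate 3 and shCNKSR2_2 replicate 1, deviations from the group mean rose with transcript GC content (r = 0.65, 0.487 and 0.487 across genes). Counts without these 3 libraries are given beside the main ones.

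Promoter sequences are shown for 4 genes of the group, those with the largest called rises and falls, because their transcripts differed from shControl with both hairpins. Each is the RefSeq window from 250 bases before to 50 after the annotated start, on build GRCm38.p6 and written along the gene's strand. They encode an accessory subunit of complex I (Ndufv3, chr17:31519865-31520164, plus strand) and subunit d of the ATP synthase stalk (Atp5h, chr11:115419870-115420169, minus strand). The others encode the delta subunit of the F1 part of the ATP synthase (Atp5d, chr10:80142025-80142324, plus strand) and cytochrome c (Cycs, chr6:50566520-50566819, minus strand). Capitals mark a motif of NRF1 (GCATGCGC) in Cycs, beginning 60 bases before the start, and of ETS factors (CCGGAAG, here as its reverse complement CTTCCGG) in Atp5h, beginning 38 bases before it.
Ndufv3: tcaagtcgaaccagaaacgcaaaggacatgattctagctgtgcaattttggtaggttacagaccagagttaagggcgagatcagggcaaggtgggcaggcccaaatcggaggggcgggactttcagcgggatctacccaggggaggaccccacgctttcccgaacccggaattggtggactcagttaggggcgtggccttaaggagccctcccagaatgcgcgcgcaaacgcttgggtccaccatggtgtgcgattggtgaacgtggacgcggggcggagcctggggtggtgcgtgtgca
Atp5h: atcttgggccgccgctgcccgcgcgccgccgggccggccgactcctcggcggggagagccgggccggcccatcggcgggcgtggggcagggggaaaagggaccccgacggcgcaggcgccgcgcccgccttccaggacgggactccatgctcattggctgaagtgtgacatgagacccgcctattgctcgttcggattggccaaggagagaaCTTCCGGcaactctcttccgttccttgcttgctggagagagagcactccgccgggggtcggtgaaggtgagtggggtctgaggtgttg
Atp5d: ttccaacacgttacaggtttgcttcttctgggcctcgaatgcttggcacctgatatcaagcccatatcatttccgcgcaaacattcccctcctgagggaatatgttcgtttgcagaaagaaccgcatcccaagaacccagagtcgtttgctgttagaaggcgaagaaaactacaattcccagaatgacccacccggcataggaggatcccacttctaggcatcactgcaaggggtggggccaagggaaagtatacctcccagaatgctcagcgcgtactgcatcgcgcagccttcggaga
Cycs: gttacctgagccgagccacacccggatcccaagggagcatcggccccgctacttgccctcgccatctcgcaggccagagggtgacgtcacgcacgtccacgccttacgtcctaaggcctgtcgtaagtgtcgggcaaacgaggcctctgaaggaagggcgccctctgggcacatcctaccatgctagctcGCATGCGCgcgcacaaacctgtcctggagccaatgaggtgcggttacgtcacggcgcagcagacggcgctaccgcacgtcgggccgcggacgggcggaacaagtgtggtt
NRF1, ETS factors such as GABP, YY1 and the ERR receptors are known regulators of nuclear respiratory genes. Of the 78 genes, 64 had 1 or more windows, 70 in all, and 4 motifs were searched for on both strands. The NRF1 motif was in 15.7% of these windows, against 5.74% of the windows of all genes of the table and 2.71% of all 32851 mouse windows. The YY1 motif (AAGATGGC) was in 15.7%, 4.96% and 2.75%, the ERR motif (AAGGTCA) in 7 of the 70 windows, 2.91% and 4.72%, and the ETS motif in 22.9%, 19.3% and 8.86%. The windows of Ndufv3 and Atp5d held none of these letters, as did a second window of Atp5d that overlaps the one shown. Each window shown held at most 1 match, so no motifs overlapped there. A match describes letters and is not evidence of binding.

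In shControl cells these were abundant transcripts. Their median level was 110 FPKM against 13.3 over all genes, and 59 of the 78 were among the top 10% of the table, above 66.9 FPKM. The median level differed by complex, at 66.1 FPKM for complex II, 77.9 for complex I, 175 for complex III, 246 for complex V and 303 for complex IV. Median transcript lengths in the same order were 2070, 971, 1360, 838 and 652 bases, and the part of length in these levels was not tested. Within complexes the levels spread most in complex I, from 10.4 FPKM for Ndufa11 to 189 for Ndufa3, both accessory subunits, and least in complex II, from 50.9 for Sdha to 82.0 for Sdhd. The highest levels of all were 589 FPKM for Ndufa4, 571 for Cox8a of complex IV and 562 for Atp5b, the catalytic beta subunit of the ATP synthase. Replicate values of these 3 overlapped, from 572 to 598, 553 to 597 and 547 to 585 FPKM, so their order is not resolved. Atp5s and Atp5sl stood far below the true subunits, at 2.75 and 7.18 FPKM. The transcripts were short, with a median of 932 bases against 3030 over all genes, and had a median GC content of 51.1%.

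**Figure D1:**
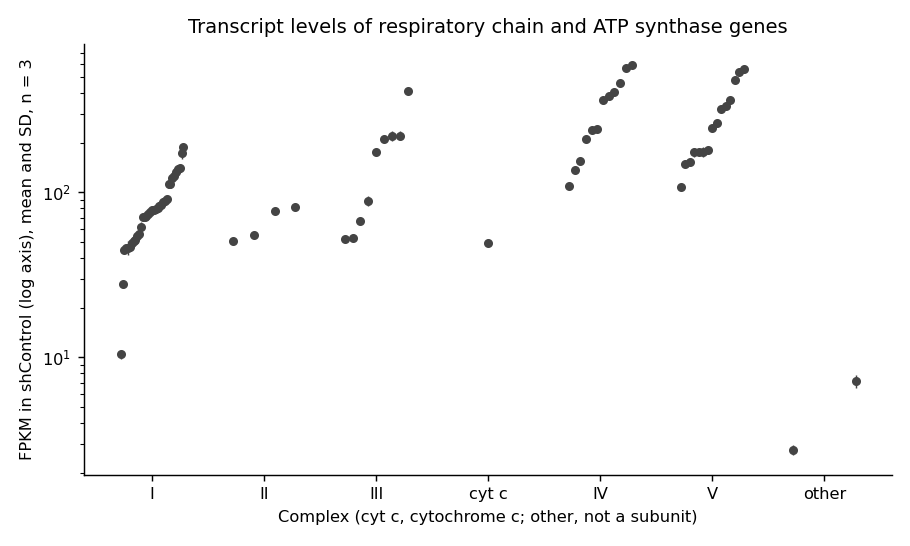
Mean FPKM in shControl of each of the 78 genes (log axis; bars, SD over 3 libraries), ordered by level within each complex. Complexes IV and V sit highest, with medians of 303 and 246 FPKM, and the 2 genes that are no subunits lie lowest, at 2.75 and 7.18 FPKM.

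More respiratory transcripts fell than rose with shCNKSR2_2, though 40 of the 78 were not called, and with shCNKSR2_1 66 were not called. With shCNKSR2_2, 34 of the 78 genes fell and 4 rose against shControl (43.6% and 5.13%, beside 28.2% and 20.0% of all genes). With shCNKSR2_1, 7 fell and 5 rose (8.97% and 6.41%), fewer than the 19.3% and 13.6% of all genes. The falls with shCNKSR2_2 were in complexes I (17 of 35), II (3 of 4), IV (6 of 12) and V (6 of 15), against 1 of 9 in complex III, and in Atp5sl. The changes were small: with shCNKSR2_2 they ran from -0.45 (Ndufv3) to 0.26 (Atp5d) on the log2 scale. Only 5 of the 34 falls reached 1.2-fold, and the 95% confidence interval of a single gene's log2 fold change had a median width of 0.18. A fall in a culture's RNA does not separate less RNA per cell from fewer cells that express it.

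Calls came from limma on log2(FPKM + 1) over all 10340 genes, two-sided, at a Benjamini-Hochberg adjusted p under 0.05. The genes lower with shCNKSR2_2 were 43.6% of the 78, beside 28.2% of all genes tested, and those higher were 5.13%, beside 20.0%. With shCNKSR2_1 the lower genes were 8.97%, beside 19.3% of all genes, and the higher ones 6.41%, beside 13.6%. So with shCNKSR2_1 both shares lay below those of the table. Without the 3 libraries of the GC trend, 30 genes fell with shCNKSR2_2 (38.5%, beside 23.2% of all genes), 14 of them in complex I. Under that setting 4 rose with shCNKSR2_2 (5.13%, beside 17.5%). With shCNKSR2_1, 8 fell and 4 rose (10.3% and 5.13%, beside 12.9% and 9.36%). The median log2 fold change of the 78 genes was -0.09 with shCNKSR2_2 and 0.001 with shCNKSR2_1, against -0.029 and -0.025 for all genes. The counts depended on scaling. After median-ratio rescaling 7 rose and 26 fell with shCNKSR2_2 (8.97% and 33.3%, beside 23.8% and 23.4% of all genes). With shCNKSR2_1, 8 rose and 6 fell (10.3% and 7.69%, beside 17.4% and 15.1%). After quantile normalization 3 rose and 36 fell with shCNKSR2_2 (3.85% and 46.2%, beside 24.5% and 22.2% of all genes). With shCNKSR2_1, 4 rose and 11 fell (5.13% and 14.1%, beside 16.1% and 15.6%), so the share of falls was near that of the table. The few rises changed with single libraries: with shCNKSR2_1 they numbered 3 without shControl replicate 1, shControl replicate 2 or shCNKSR2_1 replicate 3, and 8 without shControl replicate 3, and with shCNKSR2_2 they numbered 2 without shControl replicate 2.

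Together the 78 genes made up 2.90% to 2.93% of summed FPKM in the shControl libraries, 2.85% to 2.92% in shCNKSR2_1 and 2.73% to 2.75% in shCNKSR2_2. The 3 shCNKSR2_2 libraries lay below the other 6, and the shCNKSR2_1 range reached into that of the controls. By library, the median log2 difference of complex I from the control mean was -0.114, -0.105 and -0.106 in the shCNKSR2_2 libraries. In the shCNKSR2_1 libraries it was 0.011, -0.047 and 0.051, on both sides of the control mean. For complex III the shCNKSR2_2 values were -0.014, -0.020 and -0.013, inside the control range of -0.030 to 0.028. The difference between complexes was not tested.

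**Figure D2:**
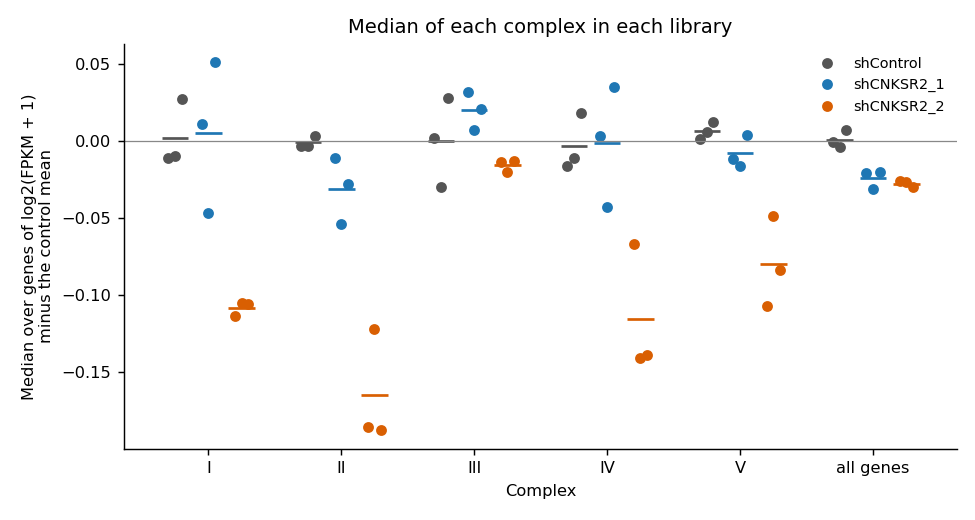
For each library (points; bars, group means), the median over the genes of a complex of log2(FPKM + 1) minus the control mean. The shCNKSR2_2 libraries lie below both other groups in complexes I, II, IV and V, and between -0.020 and -0.013 in complex III, within the control range.

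**Figure D3:**
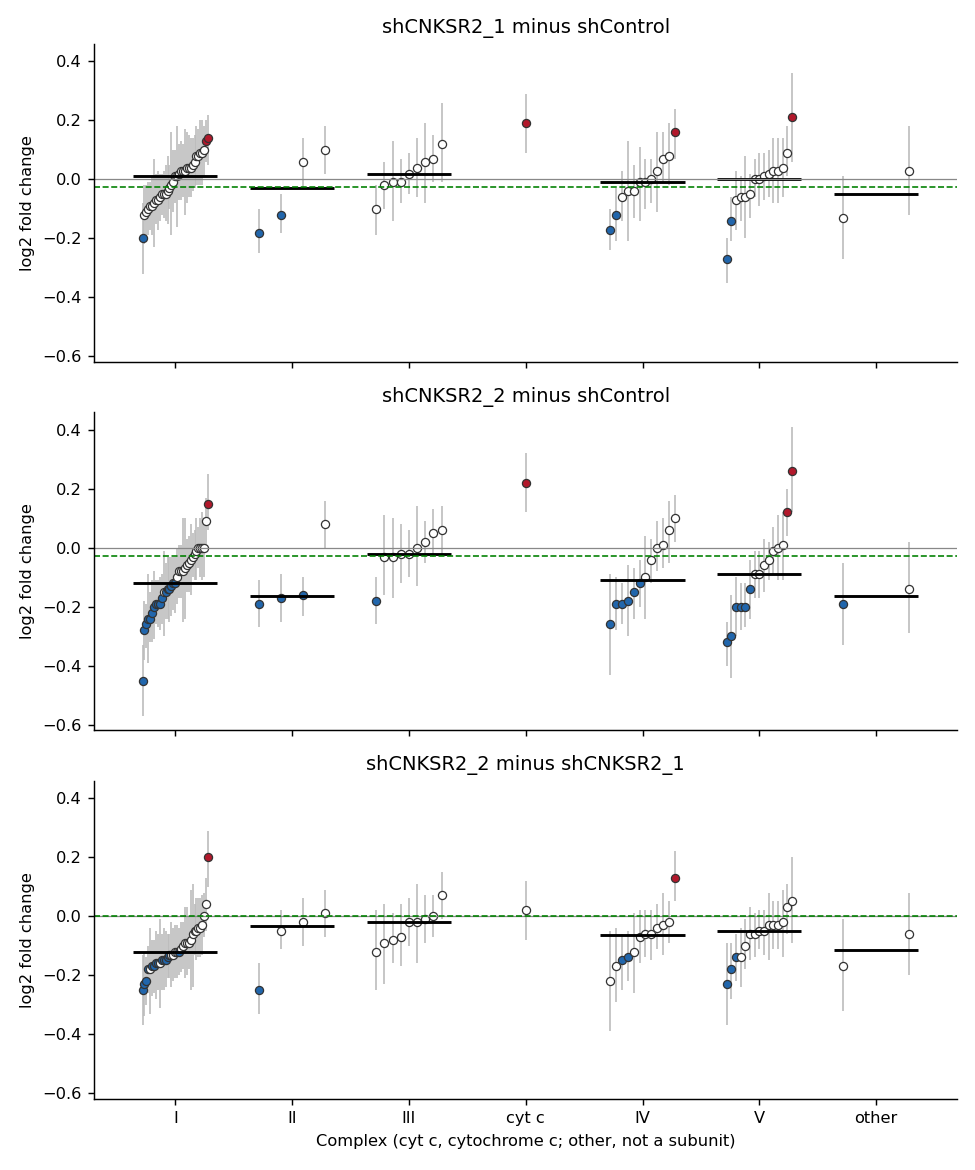
Log2 fold change of each gene (points; grey lines, 95% confidence intervals) by complex for the 3 contrasts, with genes called higher in red, lower in blue and others open; black bars are complex medians and the green dashed line the median of all genes. With shCNKSR2_2 the called falls are 17 of 35 in complex I and 1 of 9 in complex III.

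In complex I, the NADH dehydrogenase, the falls with shCNKSR2_2 took in core and accessory subunits alike: 4 of 7 core subunits, which carry out electron transfer, and 13 of 28 accessory subunits fell, with medians of -0.19 and -0.11 on the log2 scale. Of all 35 genes, 32 had a negative log2 fold change with shCNKSR2_2, and 17 did with shCNKSR2_1, with which Ndufv3 fell and Ndufa9 and Ndufs8 rose. Ndufv3, an accessory subunit at the NADH-oxidising end, read 77.9, 77.1 and 79.8 FPKM in shControl, 74.8, 63.2 and 66.6 in shCNKSR2_1 and 58.8, 55.3 and 56.8 in shCNKSR2_2. The 3 groups did not overlap, with shControl highest and shCNKSR2_2 lowest. Its log2 fold change was -0.45 ± 0.05 (SE; adjusted p = 6.48e-05) with shCNKSR2_2 and -0.20 ± 0.05 (adjusted p = 0.0165) with shCNKSR2_1. The second call was lost without shControl replicate 3, shCNKSR2_1 replicate 2 or shCNKSR2_1 replicate 3 (adjusted p = 0.0509, 0.0593 and 0.0543), and without the 3 libraries of the GC trend (0.143).

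Ndufv2, an iron-sulfur core subunit that sits beside the NADH site, read 56.7, 58.0 and 53.3 FPKM in shControl, 54.1, 49.2 and 50.8 in shCNKSR2_1 and 47.6, 45.1 and 45.2 in shCNKSR2_2. The shCNKSR2_2 libraries were lowest, while shCNKSR2_1 overlapped shControl. It fell by 0.28 ± 0.04 on the log2 scale (adjusted p = 0.000493) with shCNKSR2_2. Ndufs1, the large iron-sulfur core subunit, chosen after its values were seen, read 50.4, 48.9 and 49.5 FPKM in shControl, 48.5, 47.7 and 47.8 in shCNKSR2_1 and 39.2, 42.5 and 41.8 in shCNKSR2_2. No shCNKSR2_2 library reached the lowest of the other 6, and its log2 fold change was -0.26 (adjusted p = 0.000148). Ndufa3, the most abundant subunit of the complex, fell from 189 to 168 FPKM (-0.17 ± 0.04, adjusted p = 0.00403).

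Some subunits of the same complex went the other way. Ndufab1, the mitochondrial acyl carrier protein, which also serves fatty acid and lipoic acid synthesis, read 46.4, 45.2 and 46.6 FPKM in shControl, 42.8, 43.0 and 47.9 in shCNKSR2_1 and 51.0, 50.9 and 51.9 in shCNKSR2_2. All shCNKSR2_2 values lay above the other 6, and it was the 1 complex I gene that rose with this hairpin (0.15 ± 0.04, adjusted p = 0.0136). That call was lost without shControl replicate 2 (adjusted p = 0.0506), and Ndufab1 has 1 named pseudogene in the mouse annotation, so its share of fragments is uncertain. Named pseudogenes, here and below, are those listed under the gene's own symbol with the suffix -ps. Copies under other names were not searched for, so genes without this remark may share fragments too. Ndufa9, an accessory subunit near the quinone site, read 50, 50.9 and 50.9 FPKM in shControl, 54.5, 55.6 and 56.3 in shCNKSR2_1 and 49.8, 49.6 and 52.1 in shCNKSR2_2. It rose with shCNKSR2_1 (0.13 ± 0.03, adjusted p = 0.0107), where all values lay above the other 6, and its log2 fold change with shCNKSR2_2 rounded to 0.00. Without the 3 libraries of the GC trend the rise was not called (adjusted p = 0.0573). Ndufs8, an iron-sulfur core subunit, rose with shCNKSR2_1 (0.14 ± 0.04, adjusted p = 0.0178) and was 0.09 (adjusted p = 0.0769) with shCNKSR2_2. The Ndufs8 call was lost without shControl replicate 1, shControl replicate 2 or shCNKSR2_1 replicate 3 (adjusted p = 0.0784, 0.0554 and 0.0644).

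In complex II, succinate dehydrogenase, which also works in the citric acid cycle, the 4 subunits divided. Sdha, the flavoprotein that oxidises succinate, read 51.0, 51.1 and 50.6 FPKM in shControl, 46.7, 46.7 and 47.1 in shCNKSR2_1 and 45.0, 46.3 and 44.8 in shCNKSR2_2. Both hairpin groups lay below every control, with log2 fold changes of -0.12 (adjusted p = 0.0108) and -0.16 (adjusted p = 0.000971). Sdhd, a membrane anchor, read 81.4, 81.2 and 83.2 FPKM in shControl, 71.0, 71.7 and 74.2 in shCNKSR2_1 and 71.3, 75.7 and 71.5 in shCNKSR2_2, again below every control (-0.18 and -0.17, adjusted p = 0.00278 and 0.00227). Its partner anchor Sdhc read 56.2, 54.4 and 54.9 FPKM in shControl, 59.2, 55.7 and 57.3 in shCNKSR2_1 and 46.4, 50.3 and 48.0 in shCNKSR2_2. Only the shCNKSR2_2 libraries were low, and Sdhc was called lower with that hairpin (-0.19 ± 0.04, adjusted p = 0.00206) and not with the other (0.06, adjusted p = 0.288). Sdhb, the iron-sulfur subunit, had the opposite sign, at 0.10 and 0.08, and was not called with either hairpin (adjusted p = 0.0585 and 0.0886). Its hairpin values nonetheless all lay above the controls, and it was called higher under 4 alternative settings with shCNKSR2_1 and 3 with shCNKSR2_2.

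In complex III, the cytochrome bc1 complex, the 1 gene called with either hairpin was Uqcrc1, a core protein. It read 67.5, 66.0 and 68.8 FPKM in shControl, 60.4, 62.5 and 65.5 in shCNKSR2_1 and 61.4, 58.2 and 58.7 in shCNKSR2_2. Every hairpin value lay below the controls, with log2 fold changes of -0.10 (adjusted p = 0.063) with shCNKSR2_1 and -0.18 (adjusted p = 0.00285) with shCNKSR2_2. The other 8 genes had log2 fold changes between -0.03 and 0.06 with shCNKSR2_2. Uqcrh, the hinge protein and the most abundant of the complex, stood at 410, 408 and 404 FPKM in the 3 groups, and cytochrome c1 (Cyc1) at 88.8, 88.5 and 87.0. Uqcrh has 2 named pseudogenes, so its share of fragments is uncertain. The 95% confidence interval for Cyc1 with shCNKSR2_2 was -0.16 to 0.11, so a change inside it cannot be told from none. Complex III kept 1 called fall with shCNKSR2_2 under every alternative run that used no minimum fold.

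Cytochrome c, the mobile carrier between complexes III and IV and a trigger of apoptosis once released, rose with both hairpins. Cycs read 51.4, 50.1 and 46.7 FPKM in shControl, 54.0, 59.1 and 56.7 in shCNKSR2_1 and 55.6, 58.4 and 58.5 in shCNKSR2_2. Every hairpin library lay above every control. The log2 fold changes were 0.19 ± 0.05 (adjusted p = 0.00805) and 0.22 ± 0.05 (adjusted p = 0.00264). The first call was lost without the 3 libraries named for their GC trend (adjusted p = 0.0619). Cycs has 2 named pseudogenes, so its share of fragments is uncertain.

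In complex IV, cytochrome c oxidase, the 6 genes that fell with shCNKSR2_2 were Cox5b, Cox6a1, Cox6b1, Cox6c, Cox7b and Cox7a2l. Cox7a2l, the supercomplex factor, read 154, 152 and 158 FPKM in shControl, 140, 133 and 139 in shCNKSR2_1 and 137, 135 and 134 in shCNKSR2_2. Both hairpin groups lay below every control (-0.17 and -0.19, adjusted p = 0.00252 and 0.000608). Its paralog Cox7a2, a subunit of the oxidase proper, was 0.08 and 0.06 on the log2 scale and was not called (adjusted p = 0.216 and 0.363). Cox6a1 read 352, 354 and 390 FPKM in shControl, 354, 330 and 381 in shCNKSR2_1 and 345, 287 and 284 in shCNKSR2_2, where replicate 1 stayed close to the controls. Its log2 fold change with shCNKSR2_2 was -0.26 ± 0.08 (adjusted p = 0.0161). Calls of Cox6a1 and Cox6b1 (-0.12, adjusted p = 0.0201) were lost without shCNKSR2_2 replicate 2 or replicate 3 (adjusted p = 0.0643 and 0.0679, and 0.0842 and 0.0694). Each was also lost without 1 control, Cox6a1 without replicate 3 (0.0634) and Cox6b1 without replicate 2 (0.0907), and Cox6b1 also after median-ratio rescaling (0.0687). The complex had 3 falls, not 6, without shCNKSR2_2 replicate 2 or without replicate 3.

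Cox5a, a nuclear subunit on the matrix side, read 208, 210 and 214 FPKM in shControl, 183, 195 and 203 in shCNKSR2_1 and 210, 210 and 217 in shCNKSR2_2. It was low with shCNKSR2_1 alone (-0.12, adjusted p = 0.0358), a call that was lost without any 1 of 7 libraries, the exceptions being shCNKSR2_1 replicate 3 and shCNKSR2_2 replicate 1, and after median-ratio rescaling (adjusted p = 0.0831). Ndufa4 read 598, 596 and 572 FPKM in shControl, 629, 670 and 668 in shCNKSR2_1 and 632, 641 and 616 in shCNKSR2_2. All hairpin values lay above the controls, and it rose with shCNKSR2_1 (0.16 ± 0.04, adjusted p = 0.00857) and was 0.10 (adjusted p = 0.0501) with shCNKSR2_2. Quantile normalization, which pulls the highest values together, ended the Ndufa4 call (adjusted p = 0.375), as did leaving out the 3 libraries of the GC trend (0.0765). Cox4i1 and Cox8a, both nuclear subunits, were not called with either hairpin (-0.04 and -0.10 with shCNKSR2_2, adjusted p = 0.336 and 0.215).

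In complex V some subunits rose and others fell. The peripheral stalk keeps the catalytic head from turning, and 2 of its 4 measured genes fell with both hairpins. Atp5h, stalk subunit d, read 473, 489 and 473 FPKM in shControl, 396, 385 and 408 in shCNKSR2_1 and 390, 379 and 376 in shCNKSR2_2. The hairpin libraries all lay below the controls by a wide gap, and the log2 fold changes were -0.27 ± 0.03 (adjusted p = 0.000173) and -0.32 ± 0.03 (adjusted p = 2.55e-05). It was the 1 gene of the 78 to pass 1.2-fold with shCNKSR2_1. Atp5o, the stalk protein OSCP, chosen after its values were seen, was -0.14 (adjusted p = 0.0111) and -0.20 (adjusted p = 0.000727).

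In F1, the part of the enzyme that holds the catalytic head, delta and beta rose while gamma and epsilon fell with shCNKSR2_2. Atp5d, the delta subunit, read 168, 169 and 188 FPKM in shControl, 191, 193 and 225 in shCNKSR2_1 and 220, 205 and 205 in shCNKSR2_2. All hairpin libraries lay above the controls, the nearest being 191 against 188. Its log2 fold changes were 0.21 ± 0.07 (adjusted p = 0.0311) and 0.26 ± 0.07 (adjusted p = 0.00717), and the first was lost without shControl replicate 1, shControl replicate 2 or shCNKSR2_1 replicate 3 (adjusted p = 0.108, 0.101 and 0.0997). Atp5b, the beta subunit, was 0.12 (adjusted p = 0.0211) with shCNKSR2_2, which was lost without shControl replicate 1 or 2 or shCNKSR2_2 replicate 1 or 2 (adjusted p from 0.0572 to 0.0876) and after quantile normalization (0.535). The gamma subunit gene Atp5c1 and the epsilon subunit gene Atp5e were -0.20 (adjusted p = 0.00103) and -0.14 (adjusted p = 0.0231) with shCNKSR2_2. The Atp5e call was lost without shControl replicate 1 or 2 or shCNKSR2_2 replicate 1 or 3 (adjusted p from 0.0564 to 0.0927), after median-ratio rescaling (0.0637) or removal of a length trend (0.0766), and without the 3 libraries of the GC trend (0.0653). Atp5c1 has 1 named pseudogene, so its share of fragments is uncertain.

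Subunit c, which forms the turning ring in the membrane, is made from 3 genes that encode the same mature protein. Atp5g1 read 166, 172 and 188 FPKM in shControl, 164, 162 and 179 in shCNKSR2_1 and 156, 139 and 134 in shCNKSR2_2. Every shCNKSR2_2 value lay below the other 6, and the fall was 0.30 ± 0.06 on the log2 scale (-0.30, adjusted p = 0.00303). Atp5g2 fell too (-0.20 ± 0.05, adjusted p = 0.00392), and Atp5g3 was not called (-0.06, adjusted p = 0.258). Summed over the 3 genes, subunit c message was 842 to 885 FPKM in shControl, 818 to 869 in shCNKSR2_1 and 758 to 782 in shCNKSR2_2. The share from Atp5g1 was 19.7% to 21.3%, 19.7% to 20.6% and 17.7% to 19.9%, so its ranges overlapped. The 3 measured genes of the other membrane subunits, Atp5j2, Atp5k and Atp5l, had log2 fold changes between -0.09 and 0.03 and were not called with either hairpin. Atp5k has 1 named pseudogene and Atp5l has 2, so their shares of fragments are uncertain.

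**Figure D4:**
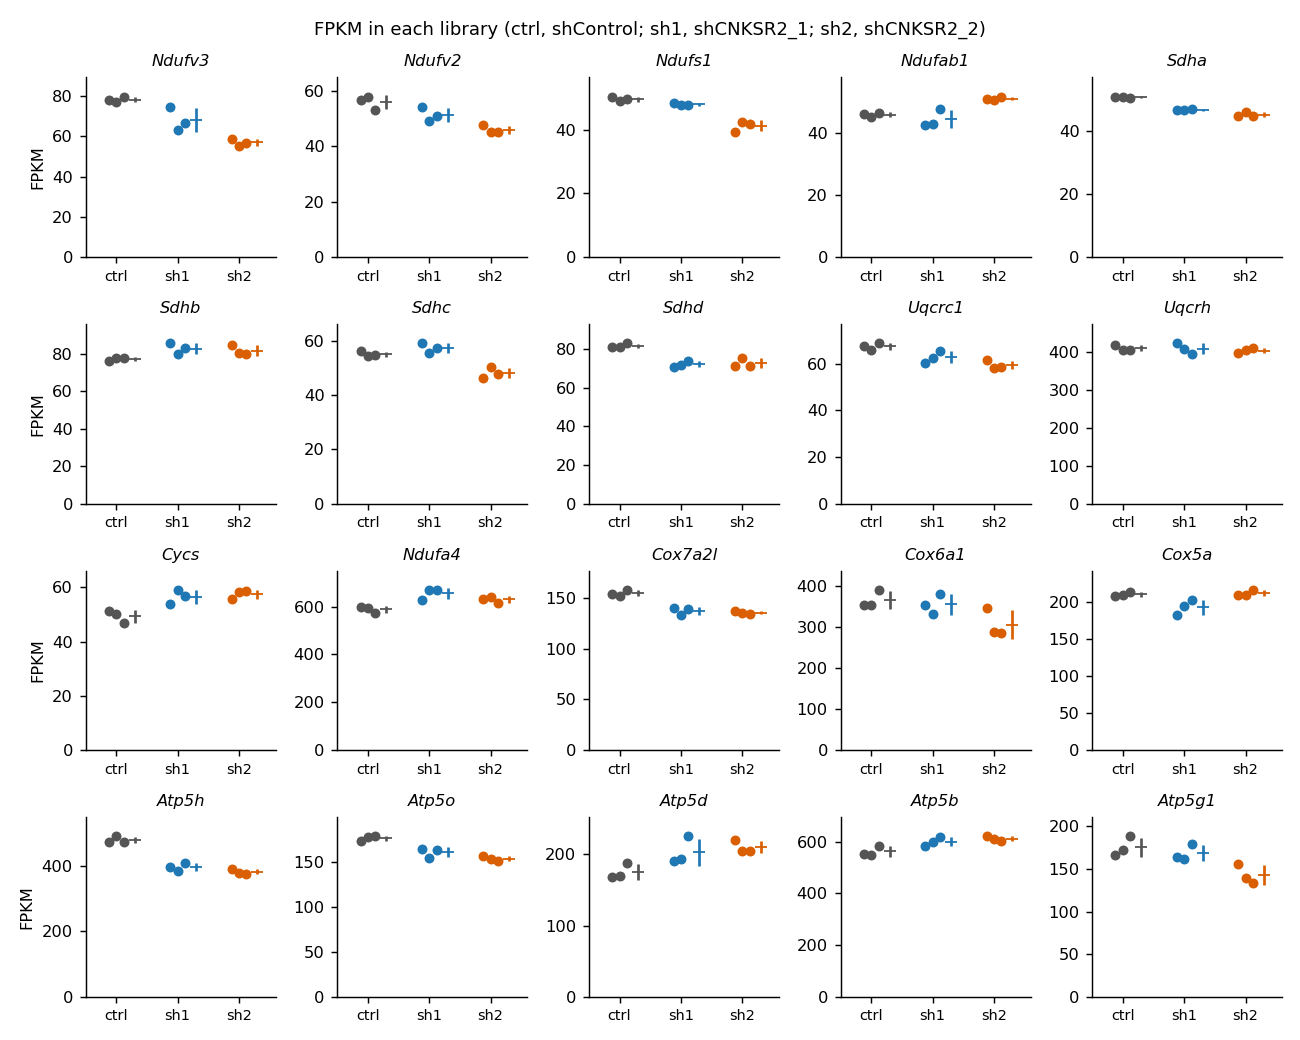
FPKM of 20 genes in each library (points, replicates 1 to 3 from left), with group means and SD beside them. Atp5h, Sdha and Cox7a2l are low in both hairpin groups, Sdhc in shCNKSR2_2 alone, and Cycs and Atp5d are high in both.

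Most genes that differed between the hairpins were in complex I. Compared directly, 20 of the 78 genes were lower with shCNKSR2_2 and 2 were higher, which is 25.6% and 2.56%, beside 11.4% and 9.13% of all genes, and the median log2 difference was -0.083 against -0.001. Of the 20, 14 belonged to complex I, 3 to complex V, 2 to complex IV and 1 to complex II. Ndufv3 and Sdhc differed most, each by -0.25 (adjusted p = 0.00872 and 0.00163), then Atp5g1 and the accessory complex I subunit Ndufa5, each by -0.23 (adjusted p = 0.0256 and 0.00862). Ndufab1 and Cox5a were the 2 higher with shCNKSR2_2 (0.20 and 0.13, adjusted p = 0.00898 and 0.0346). Ndufa5 read 136, 136 and 125 FPKM in shControl, 146, 131 and 145 in shCNKSR2_1 and 117, 118 and 124 in shCNKSR2_2, with shCNKSR2_2 below all controls and shCNKSR2_1 overlapping them. Its fall against shControl (-0.14, adjusted p = 0.0328) was lost without shControl replicate 1 or 2 or shCNKSR2_2 replicate 1 or 2 (adjusted p from 0.0919 to 0.113) and after median-ratio rescaling (0.0856).

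This count moved with single libraries, and so did that of the whole table. It was 13 lower genes (16.7%) without shCNKSR2_1 replicate 1 or replicate 3, beside 9.05% and 9.78% of all genes. It was 8 (10.3%, beside 7.07%) without shCNKSR2_2 replicate 2 and 9 (11.5%, beside 6.82%) without shCNKSR2_2 replicate 3. Without the 3 libraries of the GC trend 11 were lower (14.1%, beside 7.25%), 5 of them in complex I. After removing a trend with transcript length 11 were lower too (14.1%), nearer to the 11.5% of all genes under that setting. Under every library left out in turn, 6 of the 22 calls held, among them those of Ndufa5, Ndufab1, Ndufv3 and Sdhc, and 4 held under the other alternatives too, the 1.2-fold minimum aside. Ndufa5 and Ndufv3 were lost without the 3 libraries of the GC trend (adjusted p = 0.0659 and 0.0524). The Atp5g1 difference was lost without shCNKSR2_1 replicate 3 or shCNKSR2_2 replicate 2 or 3 (adjusted p = 0.0829, 0.0897 and 0.105), and that of Cox5a without any 1 of 7 libraries (up to 0.13). Against shControl, 25 of 38 calls held in the same way with shCNKSR2_2 and 8 of 12 with shCNKSR2_1.

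Genes that build and serve the chain gave a mixed picture, and their counts stand beside 28.2% of all genes lower and 20.0% higher with shCNKSR2_2, and 19.3% and 13.6% with shCNKSR2_1. Of 14 assembly factors of complex I in the table, 6 fell with shCNKSR2_2 (42.9%, median -0.105 beside -0.029 for all genes) and 4 with shCNKSR2_1 (28.6%), and the rest were not called. Ndufaf1 (10.4, 8.83 and 8.08 FPKM in shControl, shCNKSR2_1 and shCNKSR2_2) and Ecsit (13.4, 11.7 and 10.6 FPKM), which act together in building the membrane arm, were lower by -0.33 and -0.31 on the log2 scale with shCNKSR2_2 (adjusted p = 0.000609 and 0.000483). Of 23 assembly factors of complex IV, 6 rose and 6 fell with shCNKSR2_2 (26.1% each, near the shares of the table), and 4 rose and 1 fell with shCNKSR2_1 (17.4% and 4.35%). Coa5, required for assembly of the oxidase, stood at 25.2 ± 0.311, 21.7 ± 0.571 and 17.9 ± 0.865 FPKM (SD, n = 3), a log2 fold change of -0.20 (adjusted p = 0.00284) and -0.47 (adjusted p = 5.65e-06). Sco2 rose with both hairpins (0.28 and 0.26, adjusted p = 0.0377 and 0.0399). Pet117, at 2.42 FPKM in shControl, rose with shCNKSR2_1 (0.84, adjusted p = 0.0283) and was not called with shCNKSR2_2 (0.64, adjusted p = 0.0595). Leaving out single libraries ended the Sco2 and Pet117 calls. For complexes II, III and V, 3, 4 and 4 genes were measured, of which 1 each fell with shCNKSR2_2. Those of complex V took in its inhibitor Atpif1, and Tmem70, which was also counted for complex I. The Sdhaf1 fall (adjusted p = 0.0479) was lost without any 1 of 5 libraries and under 6 other settings, that of Bcs1l (0.0279) without any 1 of 4 libraries and under 3 settings, and that of Atpaf1 without the 3 libraries of the GC trend (0.0632). Ttc19, which helps mature complex III, rose with both hairpins (0.17 and 0.26, adjusted p = 0.00929 and 0.000368).

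Among the enzymes that feed the chain, 3 of 13 citric acid cycle genes fell with shCNKSR2_2 (23.1%, below the 28.2% of all genes), among them Idh3b and Sucla2 (both -0.15). Of 11 genes for pyruvate entry, 6 fell and 2 rose with shCNKSR2_2 (54.5% and 18.2%), and 3 fell and 2 rose with shCNKSR2_1 (27.3% and 18.2%). The 6 falls were those of Mpc2, Pdha1 and the pyruvate dehydrogenase kinases Pdk1, Pdk2, Pdk3 and Pdk4. These kinases switch the enzyme off, so the share of falls is not a measure of lower pyruvate entry. Pdhb (0.23 and 0.27, adjusted p = 0.000198 and 2.57e-05) and Pdp1 (0.27 and 0.31, adjusted p = 0.00852 and 0.0023) rose with both hairpins. Pdk3, the most abundant of the kinases at 24.1 FPKM in shControl, fell with shCNKSR2_2 (-0.19, adjusted p = 0.000486) and was not called with shCNKSR2_1 (-0.04, adjusted p = 0.319). Pdk1 stood at 6.28 ± 0.183, 4.85 ± 0.607 and 3.17 ± 0.234 FPKM (SD, n = 3), with log2 fold changes of -0.32 (adjusted p = 0.00545) and -0.80 (adjusted p = 7.07e-06). Pdk2 was -0.32 and -0.61 and Pdk4 -0.48 and -0.25, all called, though Pdk2 with shCNKSR2_1 (adjusted p = 0.023) was lost without shControl replicate 2 or 3 or shCNKSR2_1 replicate 2 or 3 (up to 0.085). Pdk2 stood at only 2.31, 1.66 and 1.16 FPKM in shControl, shCNKSR2_1 and shCNKSR2_2, near the table's minimum of 1. Its change with shCNKSR2_2 ran from -0.98 to -0.53 under settings that kept all libraries or left out the 3 of the GC trend. Without the 3 libraries of the GC trend, neither Pdk1 nor Pdk2 was called with shCNKSR2_1 (adjusted p = 0.0573 and 0.205). In a list of 10 genes for coenzyme Q synthesis and function, 3 rose and 3 fell with shCNKSR2_2 (30.0% each), with Pdss2 at 0.48 and Coq9 at -0.44. Coq10b, counted in this list though it is not an enzyme of the synthesis, rose with both hairpins (0.30 and 0.40, adjusted p = 0.00125 and 8.96e-05).

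Carriers and porins, which move phosphate, nucleotides and metabolites across the mitochondrial membranes, rose where they were called. Of 6 measured, 4 rose with shCNKSR2_2 (66.7%, beside 20.0% of all genes) and 3 with shCNKSR2_1 (50%, beside 13.6%), and the rest were not called. Vdac2, an outer membrane porin, stood at 106, 119 and 131 FPKM in shControl, shCNKSR2_1 and shCNKSR2_2 (0.16 and 0.31, adjusted p = 0.0127 and 0.000172), the first lost without the 3 libraries of the GC trend (0.0908). Slc25a3, the phosphate carrier that supplies the ATP synthase, stood at 310, 339 and 360 FPKM, with 0.22 (adjusted p = 0.00103) for shCNKSR2_2. Its rise with shCNKSR2_1 (0.13, adjusted p = 0.0268) was lost without any 1 of 4 libraries, shControl replicate 1 or 2 and shCNKSR2_1 replicate 2 or 3, and under 3 other settings. Of 9 transcription regulators of respiratory genes, 1 rose with each hairpin and the other 8 were not called. It was Ppargc1a, which encodes the coactivator PGC-1alpha, a known driver of mitochondrial biogenesis, at 2.15 ± 0.163, 3.41 ± 0.162 and 3.88 ± 0.0713 FPKM (SD, n = 3). Its log2 fold changes were 0.48 (adjusted p = 4.51e-05) and 0.63 (adjusted p = 3.47e-06). Of 10 genes for upkeep and transcription of mitochondrial DNA, 3 fell with shCNKSR2_2 (30.0%, beside 28.2% of all genes) and 1 with shCNKSR2_1 (beside 19.3%), led by Polg2, the accessory subunit of the mitochondrial DNA polymerase (-0.17 and -0.29). The Polg2 call with shCNKSR2_1 (adjusted p = 0.0219) was lost without shControl replicate 1 or 3 or shCNKSR2_1 replicate 2 or 3, after quantile normalization (0.0848) and without the 3 libraries of the GC trend (0.148). The falls of Tfb1m and Tfb2m, which act in mitochondrial transcription, with shCNKSR2_2 (adjusted p = 0.04 and 0.0298) were each lost without any 1 of 5 libraries and under 3 other settings.

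Pearson's r of the signed log2 fold change with transcript length, GC content or control level lay between -0.04 and 0.08 over the 78 genes in the 3 contrasts. The genes share their libraries, so this describes them and is not a test. As a group the 78 were short and abundant, with medians of 932 bases and 110 FPKM beside 3030 bases and 13.3 FPKM over all genes. Correlations among them therefore do not show how length or level bears on the difference between the group and the rest of the table.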

How the data were processed

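The 9 libraries were of NIH 3T3 messenger RNA, 3 for each of shControl, shCNKSR2_1 and shCNKSR2_2, grouped by their titles. The kits were Qiagen miRNeasy for RNA and Illumina TruSeq Stranded mRNA for libraries, per the labels' protocols. The authors deposited 1 FPKM column per library, and per the submitters' processing notes STAR 25.1b, Cufflinks 2.2.1 and build mm9 were used, with the annotation not given in the sources used here. The table identifies 10340 genes by symbol, each above 1 FPKM in all 9 libraries (lowest value 1.001). No fragment counts entered the analysis, so library depth is unknown, and intervals for counting error could not be had.

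Values were taken to log2(FPKM + 1), with 1 as the pseudocount, which understates the change of low genes. All 9 libraries entered limma 3.58.1 in R 4.3.3 (lmFit, eBayes with a variance trend), with 3 group means and 6 residual degrees of freedom, two-sided, Benjamini-Hochberg adjusted over 10340 genes within each contrast. A minimum mean of 1 FPKM removed 0 genes. On simulated data with 50 genes changed at each size, the script called 6% and 4% at 1.1-fold with shCNKSR2_1 and shCNKSR2_2. It called 34% and 40% at 1.15-fold and 96% and 98% at 1.5-fold. Far fewer genes were changed there than were called in the data, so these shares may not carry over. Both hairpin contrasts share the same controls.

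The genes, complexes, lists and named-gene rule were chosen with earlier results of these data known. Named genes were, per complex, those with the 2 highest and 2 lowest mean changes over both hairpins, the most abundant, the largest differences between hairpins, paralogs and all of complex II, and of each other list up to 3 called genes. Transcript length and GC content came from GENCODE vM21, matched by symbol for 10288 genes, and promoters from RefSeq on GRCm38.p6; both differ from the build of the files and were used by symbol alone. Alternatives were other pseudocounts (0.1, 0.01), a minimum of 5 FPKM, median-ratio and quantile scaling, no variance trend, a replicate block, fits of only the 2 groups compared, removal of GC or length trends, a 1.2-fold minimum, and each library left out in turn.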

Additional observations from a re-analysis of the deposited data

Results flagged for a closer look

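Several named genes differed between the 2 hairpins when these were compared directly by limma, at an adjusted p under 0.05. Among subunits the log2 differences, shCNKSR2_2 minus shCNKSR2_1, were -0.25 for Ndufv3, -0.25 for Sdhc, -0.23 for Ndufa5, -0.23 for Atp5g1, -0.22 for Ndufs1, -0.18 for Atp5e, -0.16 for Ndufv2, -0.15 for Cox6c, -0.14 for Cox7b, -0.14 for Atp5c1, -0.13 for Ndufa9, 0.13 for Cox5a and 0.20 for Ndufab1. Among the genes that serve the chain they were -0.48 for Pdk1, -0.29 for Pdk2, -0.27 for Coa5, -0.27 for Coq9, -0.20 for Suclg1, 0.13 for Vdac3, 0.14 for Vdac2, 0.23 for Pdk4 and 0.32 for Pdss2. In Ndufv3 both hairpin groups lay below shControl and shCNKSR2_2 lay lower. In Sdhc and Atp5g1 the call against shControl was with shCNKSR2_2 alone, and in Ndufa9 with shCNKSR2_1 alone. Ndufa5 and Ndufab1 had log2 fold changes of opposite sign with the 2 hairpins, 0.09 against -0.14 and -0.05 against 0.15. Single libraries ended the calls of Atp5g1, Atp5e, Atp5c1, Cox5a, Cox6c, Cox7b, Ndufa9, Ndufv2, Pdk2, Pdk4, Vdac2 and Vdac3. Without the 3 libraries of the GC trend, those of Ndufa5, Ndufv3 and Coq9 ended as well (adjusted p = 0.0659, 0.0524 and 0.0716). That of Ndufa9 was lost without shCNKSR2_2 replicate 2 (adjusted p = 0.0713), and that of Ndufv2 without shCNKSR2_1 replicate 1 or 3 or shCNKSR2_2 replicate 2 or 3 (adjusted p from 0.0578 to 0.112). The level of Cnksr2 with each hairpin was not analysed here, so its part in these differences was not tested.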

How the results depend on the processing

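No result turned its direction under a call. With a minimum of 1.2-fold, the called genes numbered 1 with shCNKSR2_1 (0 higher, 1 lower), 5 with shCNKSR2_2 (0 higher, 5 lower) and 0 between the hairpins (0 higher, 0 lower). Median-ratio rescaling gave 8 higher genes with shCNKSR2_1 and 7 with shCNKSR2_2, and medians of 0.028 and -0.06. Quantile normalization gave 11 lower genes with shCNKSR2_1 and a median of -0.028, so that median's sign is set by scaling. Removal of a length trend gave 11 lower genes with shCNKSR2_1 (14.1%, beside 19.1% of all genes) and 7 higher with shCNKSR2_2 (8.97%, beside 20.5%). Between the hairpins it gave 13 called and 11 lower (14.1%, beside 11.5%), with a median of -0.048. Without the 3 libraries of the GC trend, an alternative chosen after seeing the data, 13 were called and 11 lower between the hairpins. A fit of only the 2 groups compared gave 1 higher gene between the hairpins. The cause was not tested. With each library left out in turn, called genes ranged from 9 to 15 with shCNKSR2_1, 29 to 42 with shCNKSR2_2 and 9 to 28 between hairpins; higher ones from 3 to 8, 2 to 5 and 1 to 2; lower ones from 5 to 8, 25 to 37 and 8 to 27; and medians from -0.01 to 0.011, -0.103 to -0.083 and -0.1 to -0.062. Leaving out a library moved the number of falls in complex I with shCNKSR2_2 between 13 and 18. With the replicate number as a block, 13, 37 and 20 genes were called. Deviations of same-numbered libraries correlated between -0.319 and 0.428, so the numbers were not taken as pairs. The other alternatives kept each count over the 78 genes within 1.5 times its value. With 3 cultures a group and a median confidence interval of 0.18 wide on the log2 scale, precision limits what can be said of the smaller changes.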
